A study of Homo sapiens with 38 samples.

Results

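The genes described here are 34 genes of glycolysis and of the control of pyruvate: glucose transporters, hexokinases, the enzymes of the upper and lower glycolytic steps, the enzymes that make and remove fructose 2,6-bisphosphate, lactate dehydrogenases and lactate transporters, the pyruvate dehydrogenase kinases with their target and its phosphatase, and the mitochondrial pyruvate carrier. The genes were taken from a list by name, and that list was chosen with earlier results of these data known. Each was read from 1 probe set, the one with the highest mean log2 signal among those that name the gene alone. Of the 34 genes, 32 had such a probe set and all 32 passed the filter on low signal. They were tested among 18063 genes. The monocarboxylate transporters SLC16A1 and SLC16A3 had no probe set of their own and were not analysed here.

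A375 is an established human melanoma cell line that carries an activating BRAF mutation, and 16R6-4 is a single clone derived from it that is resistant to GSK2118436. GSK2118436 (called GSK436 below, now known as dabrafenib) inhibits RAF kinases, and GSK1120212 (called GSK212, now known as trametinib) inhibits MEK, the kinase directly below RAF. RNA of 38 samples was measured, each on its own one-colour expression array, after 24 hours of exposure. The parental line gave 18 arrays: 3 with DMSO, the vehicle, 2 with 0.1 µM GSK436, 2 with 1 µM GSK436, 3 with 10 nM GSK212, 2 with 30 nM GSK212, 3 with 10 nM GSK212 plus 0.1 µM GSK436 (the low combination) and 3 with 10 nM GSK212 plus 1 µM GSK436 (the high combination). The resistant clone gave 20 arrays: 2 with DMSO and 3 with each of the same 6 drug treatments. Because the resistant cells are 1 clone, differences between the lines cannot be told apart from traits of that clone. The labels do not say whether replicates came from separate cultures, so the p-values measure the spread between these samples only.

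Glycolysis converts glucose to pyruvate through reactions that start with phosphorylation by a hexokinase, pass the phosphofructokinase step, and end with pyruvate kinase. Phosphofructokinase is stimulated by fructose 2,6-bisphosphate, which the bifunctional PFKFB enzymes make and degrade. Pyruvate is either reduced to lactate and exported, or carried into mitochondria, where pyruvate dehydrogenase turns it into acetyl-CoA unless a PDK kinase has switched that complex off. In BRAF-mutant melanoma, RAF, MEK and ERK signalling is known to maintain glucose uptake and glycolytic gene expression.

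Promoter sequences are shown for 4 genes on which the results below turn: ALDOC and PFKFB4, whose signals rose in both lines, HK2, whose signal fell in the parental line, and PDK4, whose signal rose in the resistant clone. Each is the 250 bases before a transcript start from RefSeq in GRCh38.p14, written 5′ to 3′ along the gene's strand. For ALDOC, PDK4 and HK2 that start is the outer end of the annotated gene, whereas the PFKFB4 start lies inside the annotated gene, which extends to base 48563136 of chromosome 3, so any start farther out is not shown. They lie at chr17:28576896-28577145 on the minus strand for ALDOC, chr3:48556804-48557053 on the minus strand for PFKFB4, chr7:95596517-95596766 on the minus strand for PDK4 and chr2:74833877-74834126 on the plus strand for HK2, which is the first of its 2 windows. Capitals mark the E-box CACGTG, bound by MYC-family and MondoA-family factors, or the hypoxia-response core ACGTG, which reads CACGT on the other strand and overlaps the E-box.
ALDOC: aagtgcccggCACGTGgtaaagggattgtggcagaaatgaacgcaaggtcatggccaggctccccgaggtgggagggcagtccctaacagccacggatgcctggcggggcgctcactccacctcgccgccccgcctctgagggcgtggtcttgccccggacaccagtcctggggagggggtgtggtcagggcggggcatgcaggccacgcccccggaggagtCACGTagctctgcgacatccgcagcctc
PFKFB4: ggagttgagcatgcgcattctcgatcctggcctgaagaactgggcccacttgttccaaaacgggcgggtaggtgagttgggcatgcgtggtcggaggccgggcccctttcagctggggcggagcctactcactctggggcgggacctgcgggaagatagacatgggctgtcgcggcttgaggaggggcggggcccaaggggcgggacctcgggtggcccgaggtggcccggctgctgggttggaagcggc
PDK4: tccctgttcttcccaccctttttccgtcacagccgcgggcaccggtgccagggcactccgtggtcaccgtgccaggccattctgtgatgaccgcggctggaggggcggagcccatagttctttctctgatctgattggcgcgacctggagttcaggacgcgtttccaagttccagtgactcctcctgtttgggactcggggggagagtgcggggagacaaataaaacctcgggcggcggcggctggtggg
HK2: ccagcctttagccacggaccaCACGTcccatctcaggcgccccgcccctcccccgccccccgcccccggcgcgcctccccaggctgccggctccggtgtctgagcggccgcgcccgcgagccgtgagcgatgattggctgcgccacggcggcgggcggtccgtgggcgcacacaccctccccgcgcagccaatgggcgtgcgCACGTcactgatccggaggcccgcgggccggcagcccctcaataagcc
The ALDOC window held the E-box 240 bases before the start and a CACGT at 28 bases. The HK2 window shown held CACGT at 229 and 48 bases, and the second HK2 window, chr2:74834920-74835169, held the E-box at 194 and 149 bases. The windows shown for PFKFB4 and PDK4 held neither motif. RefSeq windows were matched for 30 of the 34 genes, with 62 windows among 35116 in all. The E-box was in 11.3% of the 62 windows against 6.34% of all windows, and the hypoxia core on either strand was in 33.9% against 18.5%. The median GC content of the gene group's windows was 67.8% against 58% of all windows. No binding was measured in these cells, so a match is only a description of the sequence.

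All arrays share one trimmed mean by scaling but differ in RNA quality. The actin signal at the 3′ end of the transcript divided by that at the 5′ end (the actin ratio), which increases as RNA is degraded or copied incompletely, ran from 3.72 to 45 and was above 20 on 15 arrays. Its mean was 7.76 in parental DMSO and 37.3, 27.9, 17.8, 20.9, 10.7 and 22.2 in the parental drug groups in the order listed above; in the resistant clone it was 5.47 with DMSO and 19.9, 10.9, 22.7, 20.7, 20.9 and 8.16 with drug. Subtracting each array's median signal, an alternative scaling, moved the median change of all genes from between 0.17 and 0.39 to between -0.43 and -0.12 in the parental drug comparisons, and from between 0.05 and 0.22 to between -0.30 and -0.19 in the resistant ones. Centring lowered the change of every one of the 32 genes by one amount per comparison: by 0.81, 0.71, 0.29, 0.42, 0.46 and 0.70 in the parental treatments in the order listed above and by 0.24 to 0.51 in the resistant ones. An increase smaller than that amount turned into a decrease on centred arrays, and a decrease became larger. Of the genes that report ERK activity, DUSP6 fell by between 4.83 and 7.56 on the log2 scale in the 6 parental drug comparisons; in the resistant clone its change was -0.14 with 0.1 µM and -0.79 with 1 µM GSK436, and in the 4 treatments with GSK212 it fell, with changes from -6.60 to -4.68. SPRY4 fell by 2.62 to 3.04 in 5 parental comparisons and was at -1.59 ± 0.98 with 30 nM GSK212 (limma, adjusted p = 0.313). Melanocyte markers (9 of 10 measured) summed to signals of 2405 to 2984 in parental DMSO and 1093 to 1403 in resistant DMSO. SOX10 averaged 529 in the first and 2.42 in the second, MIA 1612 and 13.5, and MITF 364 and 1196, whereas the pigment genes PMEL, MLANA and TYR averaged under 30 in both. Leukocyte markers (5 of 10 measured) summed to at most 315 on any array. Fibroblast and endothelial markers (7 of 8) summed to 112 to 210 in parental DMSO, 428 to 789 in parental drug groups, 64.9 to 110 in resistant DMSO and 111 to 576 in resistant drug groups. The part of these differences in the results below was not tested.

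Counts of genes rest on limma's moderated test over all 18063 genes, and a change was called when its Benjamini-Hochberg adjusted p was below 0.05 and its log2 change was at least 1 in size. All drug comparisons within a line share that line's DMSO arrays, so they do not support each other independently. With 0.1 µM GSK436 in parental cells 7 of the 32 genes were called, 5 higher and 2 lower, where 17.8% of all genes were called, 11.4% higher and 6.39% lower. With 1 µM GSK436 there were 7 calls, 2 higher and 5 lower, against 19.5% of all genes, 11.8% higher and 7.68% lower. Under GSK212 alone, 5 were called at 10 nM, 3 higher and 2 lower (11.7% of all genes, 7.68% higher and 4.04% lower), and 2 at 30 nM, 1 in each direction (9.89%, 6.47% higher and 3.42% lower). The low combination gave 3 calls, 2 higher and 1 lower (10.6%, 6.96% higher and 3.63% lower), and the high combination 6, 4 higher and 2 lower (17%, 11.2% higher and 5.74% lower). In these comparisons the genes' share of calls, between 6.25% and 21.9%, lay near that of all genes. On centred arrays the splits became 1 higher and 13 lower, 0 and 12, 2 and 2, 1 and 3, 1 and 3, and 0 and 9, in the same order. All genes shifted with them, to median changes of -0.43, -0.32, -0.12, -0.20, -0.24 and -0.36. The share of all genes called on centred arrays is not given here. These splits are therefore not read as particular to the 32 genes. The median change of the 32 genes was between 0.05 and 0.24 as scaled, against 0.17 to 0.39 for all genes.

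The resistant clone showed no call with GSK436 alone. At 0.1 µM, 0 of 32 genes were called by limma (0.00554% of all genes) and 1 had an unadjusted p below 0.05; at 1 µM the counts were again 0 (0.0775% of all genes) and 1. With 10 nM GSK212, 1 gene was called (2.77% of all genes, 2.15% higher), with 30 nM 3 (4.31%, 3.37% higher), with the low combination 4 (4.86%, 3.83% higher) and with the high combination 2 (6.52%, 4.83% higher). All of these calls were increases, in 4 genes: ALDOC, PFKFB4, PDK4 and PDK2. On centred arrays the counts were 0 higher and 1 lower with 10 nM GSK212, and 1, 3 and 1 higher with 30 nM and the combinations. Again no share of all genes is given for centred arrays. With only 2 resistant DMSO arrays these comparisons depend on each of them: without replicate 2 the counts were 0 with 10 nM GSK212, 1 with 30 nM and 2 with the low combination. Across both lines, 16 of the 32 genes were not called in the line comparison, any drug comparison or any test of a difference between lines, and 5 were called in 3 or more: ALDOC, PFKFB4, HK2, SLC2A3 and PDK4. The matching totals over all genes are not given, so these are not read as particular to the group.

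**Figure D1:**
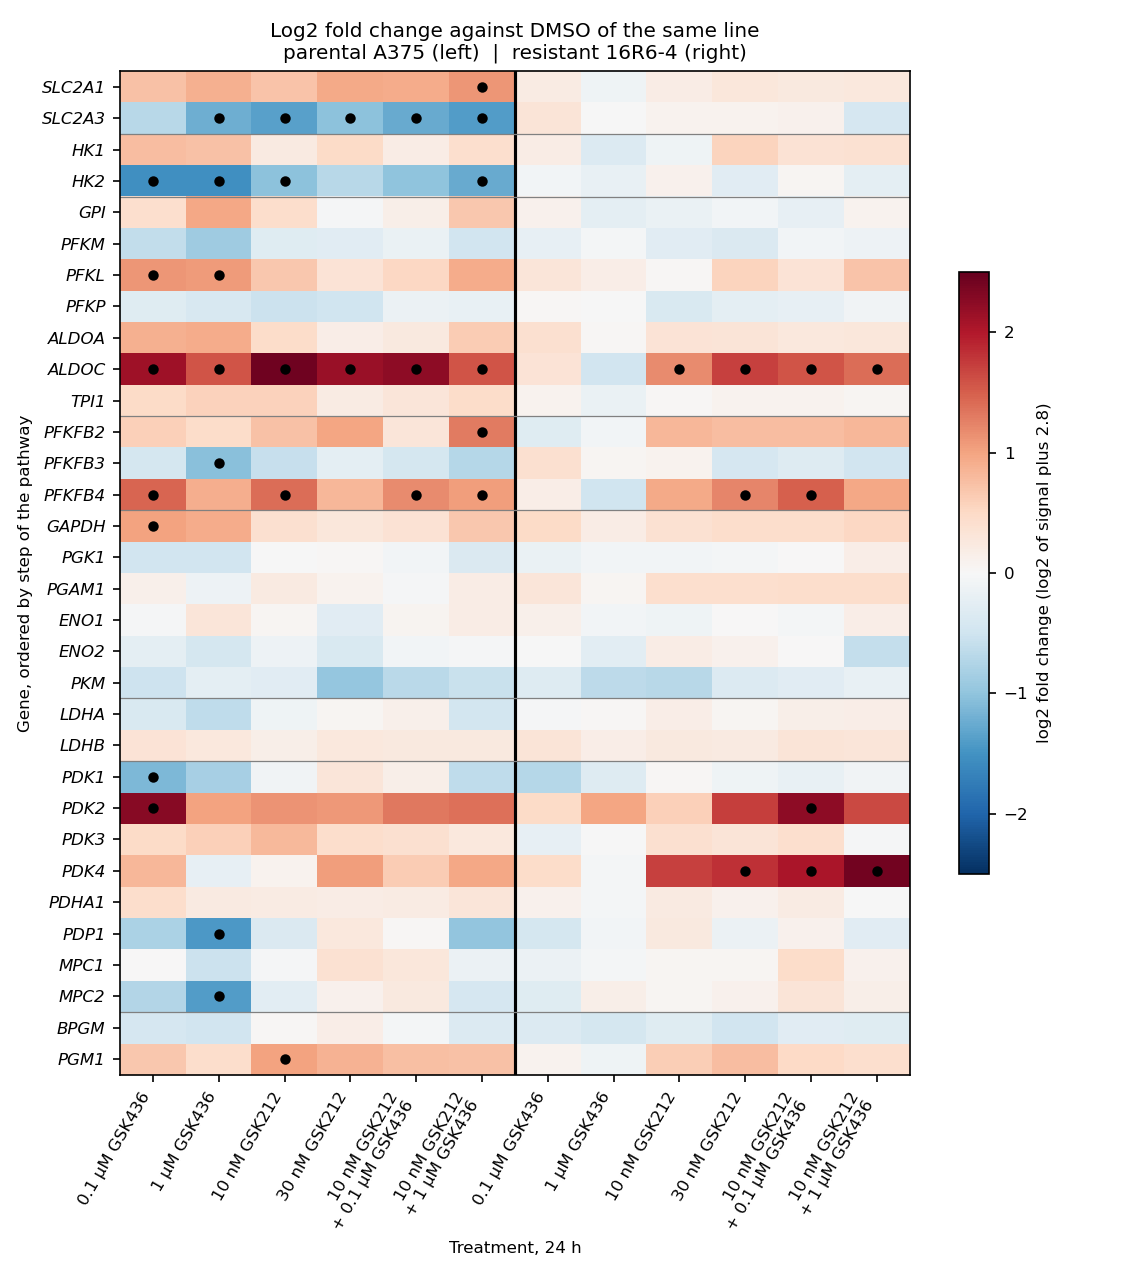
Log2 change of each of the 32 genes (top to bottom, ordered by role) in the 12 comparisons of a drug treatment with the same line's DMSO (columns), from -2.5 (blue) to 2.5 (red); a dot marks a called change. ALDOC is red in all 6 parental columns and in the 4 resistant columns with GSK212, HK2 and SLC2A3 are blue in the parental columns, and the 2 resistant columns with GSK436 alone hold no dot.

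Under DMSO the lines differed in 3 of the 32 genes, against 3.64% of all genes. ALDOC, the brain-type aldolase, was higher in the resistant clone, and PFKFB4, one of the enzymes that set fructose 2,6-bisphosphate, and PDK4, a kinase that switches off pyruvate dehydrogenase, were lower. The ALDOC signal was 91.0, 93.4 and 188 on the parental DMSO arrays and 323 and 219 on the resistant ones, with no overlap, a log2 difference of 1.17 ± 0.25 (SE; limma, adjusted p = 0.00178). PFKFB4 read 331, 283 and 493 in parental and 103 and 86.0 in resistant cells (-1.90 ± 0.27, adjusted p = 7.11e-06), and PDK4 read 51.1, 45.9 and 68.0 against 14.03 and 8.34 (-2.06 ± 0.52, adjusted p = 0.0103). HK2, which phosphorylates glucose, read 1069, 937 and 728 against 1910 and 1536; its difference of 0.93 ± 0.22 (adjusted p = 0.00604) was under the fold limit although the groups did not overlap. The ALDOC call ended without parental replicate 1 or resistant replicate 1, and the PDK4 call without parental replicate 3 or resistant replicate 2. The PFKFB4 and PDK4 calls ended when all probe sets of the gene were averaged, and the dimmer probe sets went another way: the second PFKFB4 probe set gave -0.15, and 2 further PDK4 probe sets gave 1.00 and 0.99. The 2 other HK2 probe sets gave -0.04 and -0.16. As these are bulk samples, a lower share of cells with a transcript and less of it per cell cannot be told apart.

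**Figure D2:**
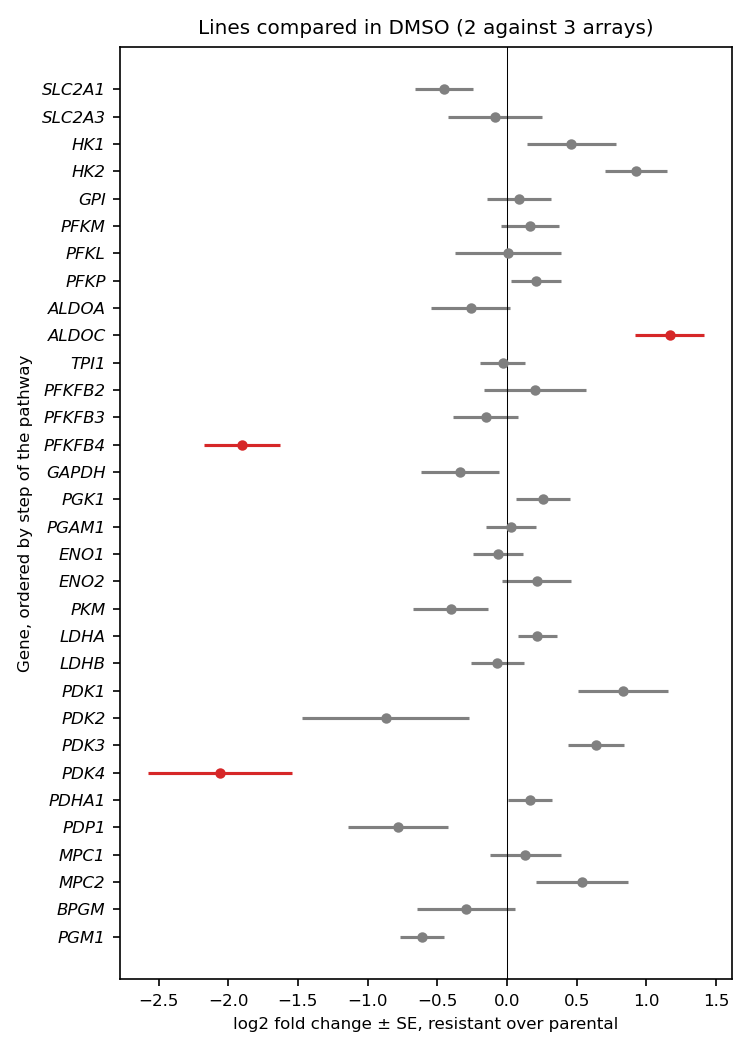
Log2 difference between resistant and parental cells under DMSO for each of the 32 genes (points, with bars of 1 SE), 2 resistant against 3 parental arrays. ALDOC at 1.17 is the highest and PFKFB4 at -1.90 and PDK4 at -2.06 are the lowest, and these 3 are in red as called; HK2 at 0.93 is next below ALDOC.

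Among the glucose transporters, the widely expressed SLC2A1 and the high-affinity SLC2A3 moved in opposite directions in parental cells. The SLC2A3 signal was 139, 111 and 181 with DMSO. It was 75.4 and 98.8 with 0.1 µM GSK436, 47.9 and 72.3 with 1 µM GSK436, 55.5, 66.5 and 41.0 with 10 nM GSK212, 45.8 and 99.1 with 30 nM GSK212, 75.6, 58.4 and 42.3 with the low combination and 59.5, 55.2 and 41.8 with the high one. All 15 treated parental arrays lay below the lowest DMSO array. The change was -0.69 ± 0.34 with 0.1 µM GSK436 (adjusted p = 0.124), where it was called lower on centred arrays (-1.50) and with the actin ratio as a covariate (-1.27, adjusted p = 0.00225) and was at -1.15 with quantile normalization. SLC2A3 fell by 1.22, 1.36, 1.03, 1.26 and 1.40 in the other 5 comparisons (SE 0.30 to 0.34, adjusted p from 0.00054 to 0.0305). The call with 30 nM GSK212 ended with the replicate number as a block and without parental DMSO replicate 1 or 3 or the treated replicate 2, and that with 1 µM GSK436 without treated replicate 2 and with all SLC2A3 probe sets averaged (-0.81). The resistant DMSO arrays read 143 and 122, and the 18 treated arrays ran from 81.1 to 211.5, on both sides of them. Its changes lay between -0.43 and 0.32 and none was called. The 2 other SLC2A3 probe sets were at -2.53 to -0.86 and at -1.36 to -0.10 in parental and at -1.23 to -0.27 and -1.45 to -0.26 in resistant cells. The difference between the lines was 0.97 to 1.44 and did not pass the adjusted test for any treatment (adjusted p from 0.0922 to 0.511).

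SLC2A1 read 711, 815 and 755 with DMSO in parental cells. It was 1569 and 1008 with 0.1 µM GSK436, 1242 and 1609.9 with 1 µM, 1270.1, 1389 and 1094 with 10 nM GSK212, 1182 and 1795 with 30 nM, 1715, 1463 and 1205 with the low combination and 2009.6, 1652 and 1301 with the high one. Every treated array lay above every DMSO array. The changes were between 0.71 and 1.10, all past the adjusted test, and only the high combination passed the fold limit (1.10 ± 0.19, adjusted p = 2.59e-05). On centred arrays they lay between -0.09 and 0.51, so the direction with 0.1 µM GSK436 depended on the scaling, and the call with the high combination ended there without its replicate 1, with the probe sets averaged and with the actin ratio as a covariate (0.90). Resistant SLC2A1 read 635 and 484 with DMSO and 466 to 813 with drug, changes of -0.10 to 0.27 with no call. The other, dimmer SLC2A1 probe set was at -0.38 with 0.1 µM GSK436 and at 0.18 to 1.03 with the other treatments in parental cells. In the resistant clone it was at -1.61 to 0.22.

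HK2, the inducible hexokinase bound to mitochondria, was lower in drug-treated parental cells and not in the resistant clone. In parental cells it read 1069, 937 and 728 with DMSO. It read 291 and 329 with 0.1 µM GSK436, 324 and 292 with 1 µM GSK436, 379, 381 and 593 with 10 nM GSK212, 512 and 600.1 with 30 nM GSK212, 386, 441 and 533 with the low combination, and 294, 376 and 472 with the high combination. All 15 treated arrays lay below all 3 DMSO arrays. HK2 fell by 1.53 ± 0.22 with 0.1 µM GSK436 (limma, adjusted p = 3.55e-06), 1.54 ± 0.22 with 1 µM (adjusted p = 2.64e-06), 1.03 ± 0.20 with 10 nM GSK212 (adjusted p = 0.000154) and 1.26 ± 0.20 with the high combination (adjusted p = 7.08e-06). With 30 nM GSK212 the change was -0.70 ± 0.22 (adjusted p = 0.0251), and with the low combination it reached -0.998 ± 0.20 (adjusted p = 0.000254), just under the fold limit; on centred arrays both were called, at -1.12 and -1.46. The call with 10 nM GSK212 ended without parental DMSO replicate 1 or 2 or treated replicate 1 or 2, with quantile normalization and without arrays of high actin ratio. With the probe sets of HK2 averaged it ended too, at -0.83, as did the call with the high combination, at -0.87.

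In the resistant clone HK2 read 1909.8 and 1536 with DMSO. It read 1759.6, 1722 and 1459 with 0.1 µM GSK436, 1699.9, 1597 and 1253 with 1 µM GSK436, 1530.3, 1779.8 and 2278 with 10 nM GSK212, 1513, 1483 and 1260.5 with 30 nM GSK212, 2199.6, 1442 and 1718 with the low combination, and 1243, 1489 and 1657 with the high combination. Treated and DMSO arrays overlapped in every group except 30 nM GSK212, where all 3 lay below both DMSO arrays. The changes were between -0.28 and 0.10 and none was called. The more widely expressed HK1 was not called in any comparison, with changes of 0.18 to 0.76 in parental and -0.34 to 0.55 in resistant cells.

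Among the upper glycolytic enzymes, ALDOC, an aldolase that splits fructose 1,6-bisphosphate, was called higher in all 6 parental comparisons. Against 91.0, 93.4 and 188 with DMSO, it read 507 and 522 with 0.1 µM GSK436, 373 and 333 with 1 µM GSK436, 675, 742 and 534 with 10 nM GSK212, 472 and 604 with 30 nM GSK212, 641, 553 and 508 with the low combination, and 439.6, 321 and 318 with the high one. All 15 treated arrays were above the highest DMSO array. Under 0.1 and 1 µM GSK436 ALDOC rose by 2.11 and 1.57, under 10 and 30 nM GSK212 by 2.43 and 2.16, and under the low and high combinations by 2.24 and 1.58 (SE 0.22 to 0.25, adjusted p from 2.45e-10 to 1.15e-05). The largest, with 10 nM GSK212, was a 5.40-fold increase. On centred arrays the changes with 1 µM GSK436 and the high combination were 0.86 and 0.88, under the fold limit.

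In the resistant clone ALDOC was called higher only where GSK212 was present. Against 323 and 219 with DMSO, it read 264, 325 and 447 with 0.1 µM GSK436 and 211.8, 175 and 185 with 1 µM GSK436. It read 577, 704 and 556 with 10 nM GSK212, 1037, 760.1 and 858 with 30 nM GSK212, 650.0, 884 and 885 with the low combination, and 768, 668 and 674 with the high one. The 12 arrays with GSK212 were all above both DMSO arrays, while the arrays with 0.1 µM GSK436 overlapped them and those with 1 µM lay below. The changes were 0.34 (adjusted p = 0.911) and -0.48 (adjusted p = 1.0) with GSK436, and ALDOC rose by 1.18 ± 0.25, 1.71 ± 0.25, 1.57 ± 0.25 and 1.39 ± 0.25 in the 4 treatments with GSK212 (adjusted p = 0.00231, 9.61e-06, 3.33e-05 and 0.000129). The call with 10 nM GSK212 ended on centred arrays (0.73), with the actin ratio as a covariate (0.93) and without DMSO replicate 2, and that with the high combination ended on centred arrays (0.93).

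The other upper enzymes changed less. PFKL, the liver-type phosphofructokinase, read 109, 85.2 and 129 with parental DMSO, 267 and 201 with 0.1 µM GSK436 and 226 and 222 with 1 µM. It rose by 1.11 ± 0.38 (adjusted p = 0.0292) and 1.06 ± 0.38 (adjusted p = 0.0345), calls that ended on centred arrays (0.29 and 0.34), with the actin ratio as a covariate (0.53 and 0.58), with quantile normalization and without DMSO replicate 1 or 2 or either treated array. The muscle and platelet types were at -0.62 and -0.88 (PFKM under the GSK436 doses) and -0.54 and -0.50 (PFKP under the GSK212 doses), past the adjusted test but under the fold limit. On centred arrays PFKM was called lower with both GSK436 doses (-1.43 and -1.60) and the high combination (-1.17), and PFKP with both GSK436 doses (-1.12 each). ALDOA, the aldolase of muscle and most cells, was at 0.89 and 0.93 with GSK436 in parental cells, and GPI, which makes fructose 6-phosphate, at 0.97 with 1 µM (adjusted p = 0.00156) and 0.67 with the high combination; both genes were under the fold limit. The ALDOA values were 0.08 and 0.22 on centred arrays and 0.25 and 0.41 with the actin ratio as a covariate (adjusted p = 0.359 and 0.0715), and the centred GPI values were 0.26 and -0.03. None of these 5 genes was called in the resistant clone, where their changes were -0.39 to 0.71.

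**Figure D3:**
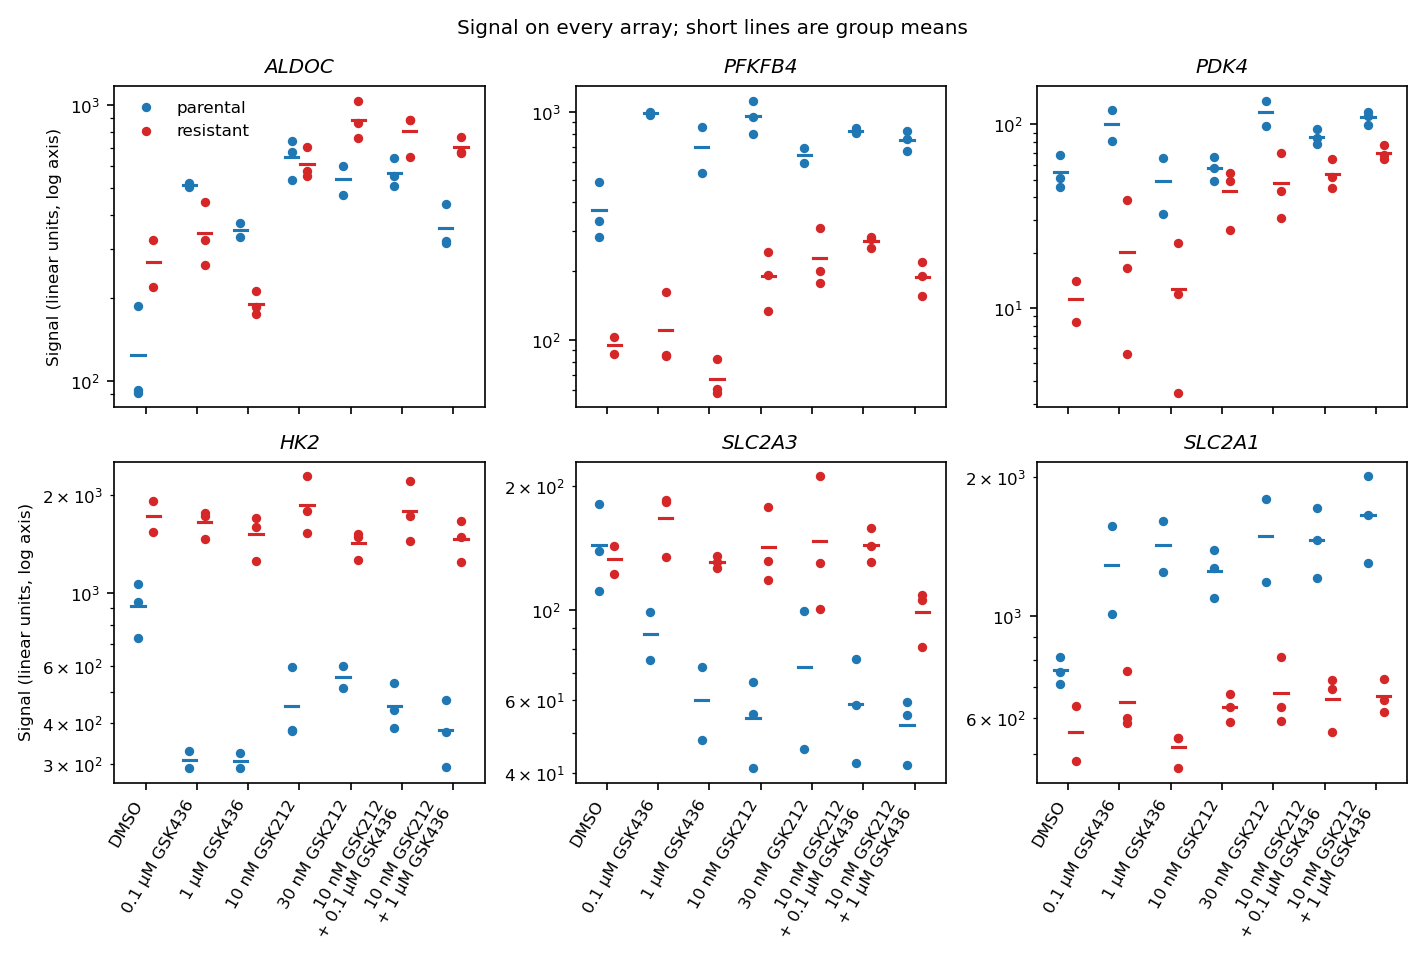
Signal (MAS5, log axis) on each array for ALDOC, PFKFB4, PDK4, HK2, SLC2A3 and SLC2A1, by treatment, with parental arrays in blue and resistant arrays in red; short lines are group means of 2 or 3 arrays. Parental HK2 and SLC2A3 arrays with drug all lie below the DMSO arrays, parental ALDOC and SLC2A1 arrays with drug all lie above them, and resistant ALDOC lies above its DMSO arrays only in the 4 groups with GSK212.

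Of the enzymes that control fructose 2,6-bisphosphate, PFKFB4 rose with drug in both lines from different starting levels. In parental cells it read 331, 283 and 493 with DMSO, then 972 and 995 with 0.1 µM GSK436, 857 and 536 with 1 µM GSK436, 1118, 950.4 and 795 with 10 nM GSK212, 694 and 597 with 30 nM GSK212, 803, 818 and 844 with the low combination and 758, 825 and 671 with the high one. All treated arrays exceeded all DMSO arrays. PFKFB4 rose by 1.45 ± 0.27 with 0.1 µM GSK436 (adjusted p = 0.000177), 1.39 ± 0.24 with 10 nM GSK212 (adjusted p = 4.73e-05), 1.19 ± 0.24 with the low combination (adjusted p = 0.000434) and 1.05 ± 0.24 with the high one (adjusted p = 0.00126). With 1 µM GSK436 and 30 nM GSK212 it was at 0.91 and 0.84 (adjusted p = 0.0112 and 0.0307), under the fold limit. On centred arrays the call with 10 nM GSK212 held, at 1.10, and the other 3 ended; the call with the high combination also ended without parental DMSO replicate 1 or 2 or treated replicate 2.

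In the resistant clone PFKFB4 read 103 and 86.0 with DMSO, 84.5, 85.8 and 161 with 0.1 µM GSK436, 81.9, 58.4 and 60.5 with 1 µM GSK436, 192, 134 and 242 with 10 nM GSK212, 309, 199.7 and 176 with 30 nM GSK212, 277, 252 and 281 with the low combination, and 190.2, 156 and 219 with the high one. Every array with GSK212 was above both DMSO arrays, and every one with 1 µM GSK436 was below both. It rose by 1.21 ± 0.27 with 30 nM GSK212 (adjusted p = 0.00347) and 1.49 ± 0.27 with the low combination (adjusted p = 0.000282). It was at 0.95 with 10 nM GSK212 (adjusted p = 0.0378) and 0.97 with the high combination (adjusted p = 0.0158), and at 0.16 and -0.49 with GSK436 alone. The call with 30 nM GSK212 ended on centred arrays (0.71) and without DMSO replicate 2 or treated replicate 1. With the PFKFB4 probe sets averaged, both resistant calls ended, at 0.59 and 0.65. Only 1 of the 20 resistant arrays, at 309, reached the lowest parental DMSO array.

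PFKFB3, the family member with the highest kinase activity, read 396, 388 and 341 with parental DMSO and 144 and 226 with 1 µM GSK436, where it fell by 1.04 ± 0.23 (adjusted p = 0.000953). That call ended without parental DMSO replicate 1 or treated replicate 2; on centred arrays PFKFB3 was also called lower with 0.1 µM GSK436 (-1.25) and the high combination (-1.41). PFKFB2, the heart type, read 49.4, 29.3 and 29.8 with parental DMSO and 111, 70.2 and 93.6 with the high combination, where it rose by 1.29 ± 0.33 (adjusted p = 0.00293). That call ended on centred arrays (0.59), with quantile normalization, with the probe sets averaged and without arrays of high actin ratio. The dimmer PFKFB2 probe sets gave 1.59, -1.29 and 3.06 in that comparison. Neither PFKFB3 nor PFKFB2 was called in the resistant clone. PFKFB2 read 38.7 and 43.2 there with DMSO and 54.1 to 102.9 with GSK212, alone or combined. Every array with GSK212 thus lay above both DMSO arrays, at changes of 0.77 to 0.83.

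The lower glycolytic enzymes gave 1 call in all drug comparisons as scaled. On centred arrays that call ended and calls of lower signal took its place: PGK1 with both GSK436 doses and the high combination (-1.28, -1.20 and -1.05), ENO2 with both GSK436 doses (-1.05 and -1.14), and PKM with 0.1 µM GSK436, 30 nM GSK212 and both combinations (-1.32, -1.39, -1.14 and -1.26) in parental cells, and PKM with 10 nM GSK212 (-1.14) in the resistant clone. GAPDH read 24647, 24613 and 35020.1 with parental DMSO and 56735 and 54614 with 0.1 µM GSK436, where it rose by 1.01 ± 0.28 (adjusted p = 0.00742). The centred change was 0.19 and that with the actin ratio as a covariate 0.38, and the call also ended with quantile normalization, with the probe sets averaged and without DMSO replicate 1 or 2 or treated replicate 2. PKM, which encodes the pyruvate kinase of most tissues and tumours, read 1121, 1251 and 1454 with parental DMSO, 906 and 874 with 0.1 µM GSK436, 1081 and 1048 with 1 µM, 1279, 1131 and 774 with 10 nM GSK212, 646 and 647 with 30 nM, 735, 832 and 821 with the low combination and 869, 824 and 880.3 with the high one. Its changes of -0.97 with 30 nM GSK212 and -0.67 with the low combination passed the adjusted test but not the fold limit. The other, dimmer PKM probe set was at 0.57, 0.44, -0.22, -0.69, -0.64 and -0.07 as scaled in the parental treatments, in the order listed above. Its direction with both GSK436 doses was thus opposite to that of the chosen probe set. In the resistant clone that dimmer probe set was at 0.46, -0.02, 0.30, 0.24, 0.12 and -0.54. Resistant PKM read 1105 and 829 with DMSO, 745, 770.1 and 770.0 with 0.1 µM GSK436, 612, 619.9 and 599 with 1 µM, 471, 740.2 and 593 with 10 nM GSK212, 1014, 639 and 650.1 with 30 nM, 524, 1432 and 659 with the low combination and 1151, 715 and 737 with the high one. The lowest changes, -0.65 ± 0.27 with 1 µM GSK436 (adjusted p = 1.0) and -0.69 ± 0.27 with 10 nM GSK212 (adjusted p = 0.16), were not called although none of those 6 arrays reached a DMSO array.

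ENO2, the neuronal enolase, read 315, 341 and 265 with parental DMSO and 149 to 369 with drug, with no call. Resistant arrays read 452 and 278 with DMSO, 375.4, 364 and 323 with 0.1 µM GSK436, 317, 287 and 285 with 1 µM, 393, 443 and 382 with 10 nM GSK212, 348, 399.6 and 398.8 with 30 nM, 275, 412 and 394 with the low combination and 255, 256 and 193 with the high one. The high combination gave -0.60 ± 0.25 (adjusted p = 0.125), the lowest change of any of the 32 genes in that comparison, and its 3 arrays lay below both DMSO arrays. The ubiquitous ENO1 changed by -0.28 to 0.30 in every drug comparison, PGK1 by -0.49 to 0.18 and PGAM1 by -0.12 to 0.45, without a call. TPI1, the triosephosphate isomerase, was at 0.48, 0.58, 0.57 and 0.46 with the GSK436 doses, 10 nM GSK212 and the high combination in parental cells, past the adjusted test and under the fold limit. On centred arrays the TPI1 values were -0.33, -0.13, 0.27 and -0.24, so the direction turned with the scaling in 3 of the 4. These values are of the chosen probe set. As scaled, another TPI1 probe set was at 0.20 to 0.62 and the dimmest at 1.16 to 1.65 in the parental drug comparisons.

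The lactate dehydrogenase subunits gave no call as scaled, but LDHA was called lower on centred arrays. LDHA, the subunit that favours making lactate, read 13512, 13526 and 13487 with parental DMSO, 9749 and 11113 with 0.1 µM GSK436 and 9902 and 7731 with 1 µM. Its changes were -0.38, -0.63 and, with the high combination, -0.46, all past the adjusted test and under the fold limit. The centred LDHA changes were -1.19, -1.34 and -1.16, all called. Resistant LDHA changed by -0.02 to 0.17. LDHB, the subunit that favours using lactate, changed by 0.15 to 0.35 in the 12 drug comparisons with no call, and its parental changes were -0.46 to -0.14 on centred arrays.

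PDK4, a kinase of pyruvate dehydrogenase known to be induced during fasting, was called with drug in the resistant clone and not in the parental line. That reading is of the brightest PDK4 probe set. The difference between the lines in its change, between -0.38 and 1.62, did not pass the adjusted test for any treatment (limma, adjusted p from 0.321 to 0.968). The 2 further, dimmer PDK4 probe sets went another way. They were at 1.10 to 2.82 and 0.38 to 1.71 in the parental drug comparisons. In the resistant ones they were at -0.97 to 0.55 and -1.20 to 0.95. In parental cells PDK4 read 51.1, 45.9 and 68.0 with DMSO, 81.7 and 121 with 0.1 µM GSK436, 66.0 and 32.5 with 1 µM GSK436, 58.1, 49.4 and 66.2 with 10 nM GSK212, 98.6 and 135 with 30 nM, 84.2, 78.1 and 95.0 with the low combination and 111, 117 and 99.9 with the high one. Groups with 1 µM GSK436 and 10 nM GSK212 overlapped DMSO and the other 4 lay above it, but no change, between -0.21 and 1.05, was called. Resistant PDK4 read 14.03 and 8.34 with DMSO, 16.4, 5.57 and 38.6 with 0.1 µM GSK436, 22.6, 3.44 and 11.9 with 1 µM GSK436, 54.6, 26.6 and 49.4 with 10 nM GSK212, 69.4, 43.4 and 30.9 with 30 nM, 51.5, 45.1 and 65.1 with the low combination and 64.4, 68.1 and 77.6 with the high one.

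All 12 resistant arrays with GSK212 were above both DMSO arrays, and both GSK436 groups overlapped them. PDK4 rose by 1.82 ± 0.52 with 30 nM GSK212 (adjusted p = 0.0243), 2.04 ± 0.52 with the low combination (adjusted p = 0.00932) and 2.41 ± 0.52 with the high one (adjusted p = 0.00132). With 10 nM GSK212 the change was 1.70 (adjusted p = 0.0529). The call with 30 nM GSK212 ended on centred arrays and without either DMSO array or treated replicate 1 or 2, and that with the low combination without DMSO replicate 2. With the PDK4 probe sets averaged all 3 calls ended, at 0.51, 0.46 and 0.88. The resistant DMSO signals of PDK4 were under 34.88, the signal used as the filter, so the size of these increases rests on dim values.

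PDK2, another kinase of the same complex, was dim as well. In parental cells it read 37.7, 27.6 and 25.4 with DMSO, 187 and 128 with 0.1 µM GSK436, 40.1 and 96.0 with 1 µM, 89.9, 82.5 and 43.1 with 10 nM GSK212, 82.6 and 52.7 with 30 nM, 127, 83.1 and 44.7 with the low combination and 82.7, 59.9 and 109.6 with the high one. Every treated array lay above every DMSO array. PDK2 rose by 2.27 ± 0.60 with 0.1 µM GSK436 (adjusted p = 0.00487), a call that ended on centred arrays and without treated replicate 2; the other 5 changes, 1.00 to 1.37, were not called. Resistant arrays read 38.4 and 4.92 with DMSO, 31.1, 16.1 and 21.2 with 0.1 µM GSK436, 49.3, 28.0 and 24.6 with 1 µM, 30.0, 45.7 and 9.30 with 10 nM GSK212, 92.5, 31.4 and 60.3 with 30 nM, 103, 93.6 and 54.6 with the low combination and 70.2, 48.9 and 43.5 with the high one. PDK2 rose by 2.23 ± 0.60 with the low combination (adjusted p = 0.0139), where all 3 arrays exceeded both DMSO arrays. That call ended on centred arrays and without DMSO replicate 2, the array at 4.92, or treated replicate 1. The parental DMSO mean of PDK2, 30.24, was under 34.88, the signal used as the filter, as was that resistant array. The size of the PDK2 increases therefore rests on dim values in both lines.

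The remaining genes of pyruvate control were called only with GSK436 in parental cells. PDK1, the kinase induced in hypoxia, read 343, 274 and 166 with DMSO and 93.7 and 137 with 0.1 µM GSK436, where it fell by 1.12 ± 0.32 (adjusted p = 0.00896). PDP1, the phosphatase that switches pyruvate dehydrogenase back on, read 2917, 3029 and 1809.6 with DMSO and 1196 and 715 with 1 µM GSK436 and fell by 1.44 ± 0.36 (adjusted p = 0.00261). MPC2, a subunit of the mitochondrial pyruvate carrier, read 518, 519 and 338 with DMSO and 229.8 and 125 with 1 µM GSK436 and fell by 1.39 ± 0.33 (adjusted p = 0.0016). All 3 calls ended when the actin ratio entered the model as a covariate, with changes of -0.66, -0.92 and -0.83, and when all probe sets of the gene were averaged. The PDK1 call also ended without DMSO replicate 1 or treated replicate 2, and the PDP1 and MPC2 calls without treated replicate 3. The carrier's other subunit MPC1, the dehydrogenase subunit PDHA1 and the kinase PDK3 were not called in any comparison, although PDK3 at 0.59 with 1 µM GSK436 and 0.81 with 10 nM GSK212 and PDHA1 at 0.44 passed the adjusted test in parental cells. On centred arrays these PDK3 values were -0.12 and 0.51 and PDHA1, measured with 0.1 µM GSK436, was at -0.37; with the actin ratio as a covariate PDK3 was at 0.46 (adjusted p = 0.111) and 0.74 (adjusted p = 0.00121) and PDHA1 at 0.16 (adjusted p = 0.445). MPC1 was called lower with 1 µM GSK436 on centred arrays (-1.25).

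PGM1, which links glycogen and glucose 6-phosphate, read 1367, 1320.0 and 1369 with parental DMSO and 2795, 2733 and 2646 with 10 nM GSK212. It rose by 1.01 ± 0.14 (adjusted p = 9.49e-07), a call that ended on centred arrays (0.72), with the actin ratio as a covariate and without DMSO replicate 2 or treated replicate 1. All 15 treated parental arrays, from 1639 upward, lay above the 3 DMSO arrays. In the resistant clone PGM1 changed by 0.42 to 0.78 in the treatments with GSK212 and by -0.11 to 0.08 with GSK436 alone, with no call. BPGM, which makes 2,3-bisphosphoglycerate, was not called in any comparison as scaled and was called lower with 0.1 µM GSK436 on centred arrays (-1.23).

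Whether a drug changed a gene differently in the lines was tested as the difference between the resistant and the parental change. With 0.1 µM GSK436, 3 of 32 genes were called (4.17% of all genes): HK2 at 1.47 ± 0.31 (limma, adjusted p = 0.00286), ALDOC at -1.77 ± 0.35 (adjusted p = 0.00136) and PFKFB4 at -1.29 ± 0.39 (adjusted p = 0.0452). With 1 µM GSK436, 6 were called (11% of all genes). These were HK2 at 1.36 ± 0.31 (adjusted p = 0.00338), ALDOC at -2.05 ± 0.35 (adjusted p = 0.000158), PFKFB4 at -1.40 ± 0.39 (adjusted p = 0.0142), PFKFB3 at 1.10 ± 0.33 (adjusted p = 0.0242), GPI at -1.21 ± 0.32 (adjusted p = 0.0117) and MPC2 at 1.53 ± 0.47 (adjusted p = 0.0262). With 10 nM GSK212, 2 were called (1.9% of all genes), HK2 at 1.13 ± 0.30 (adjusted p = 0.031) and ALDOC at -1.25 ± 0.33 (adjusted p = 0.0341). With 30 nM GSK212 and the low and high combinations, limma called 0 of 32 (0.792%, 0.786% and 1.05% of all genes), and 2, 3 and 6 had an unadjusted p below 0.05.

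For HK2 the difference at 30 nM GSK212 and the combinations was 0.42, 1.04 and 1.02 and did not pass the adjusted test (adjusted p = 0.093 and 0.0858 for the low and high combination). The ALDOC difference with either GSK436 dose and the HK2 difference with 1 µM held in all 21 alternative settings. The HK2 and ALDOC calls with 10 nM GSK212 ended in 12 and 10 of 22 settings, the PFKFB4 call with 0.1 µM GSK436 in 11 of 21, and the calls with 1 µM GSK436 in 8 of 21 for MPC2, 5 for PFKFB4, 5 for PFKFB3 and 3 for GPI. The HK2 call with 0.1 µM GSK436 ended only with its probe sets averaged (1.03). Without resistant DMSO replicate 1, 2 genes in place of 6 were called for 1 µM GSK436.

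**Figure D4:**
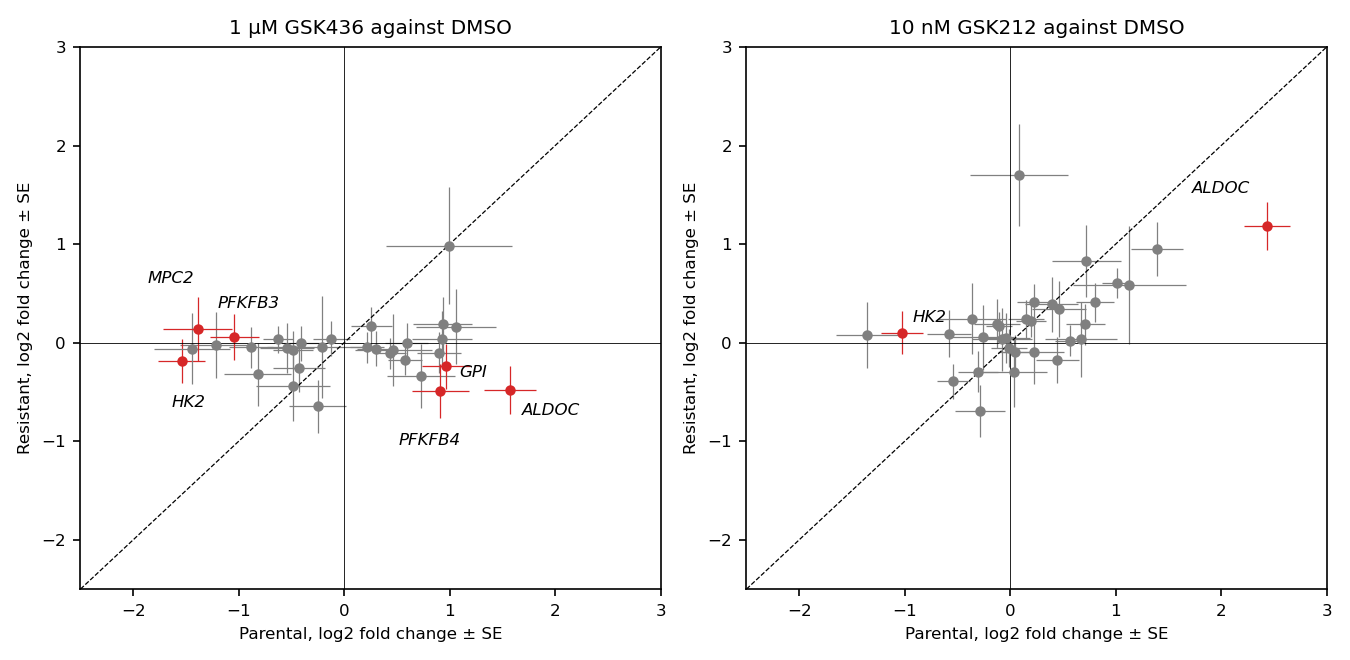
Log2 change in the resistant clone (y axis) against that in the parental line (x axis) for each of the 32 genes, with bars of 1 SE, for 1 µM GSK436 (left) and 10 nM GSK212 (right); the diagonal marks equal change and red marks a called difference between the lines. At 1 µM GSK436 the 6 red genes HK2, MPC2, PFKFB3, GPI, PFKFB4 and ALDOC lie off the diagonal with resistant changes between -0.49 and 0.14, and at 10 nM GSK212 HK2 and ALDOC do, with resistant changes of 0.10 and 1.18.

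Adding the second drug was tested against each drug alone. In parental cells the high combination differed from 1 µM GSK436 in 0 of 32 genes by limma (0.0166% of all genes; 3 at an unadjusted p below 0.05) and from 10 nM GSK212 in 0 (0.343%; 5 unadjusted). ALDOC was the closest in the second, at -0.85 ± 0.22 (adjusted p = 0.0687). In resistant cells the high combination was higher than 1 µM GSK436 alone in 3 genes (5.53% of all genes): ALDOC by 1.87 ± 0.22 (adjusted p = 1.56e-07), PFKFB4 by 1.46 ± 0.24 (adjusted p = 5.63e-05) and PDK4 by 2.45 ± 0.46 (adjusted p = 0.000291). For each of these 3 genes the lowest array with the combination lay above the highest with 1 µM GSK436. With the probe sets of each gene averaged, the PFKFB4 and PDK4 calls ended, at 0.15 and 1.38. Against 10 nM GSK212 it differed in 0 genes (0.559%; 4 unadjusted).

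RNA quality moved with several of these values. The fitted slope of signal on the actin ratio passed an adjusted p of 0.05 for 17 of the 32 genes and for 35% of all genes. GAPDH shows it through its own control probe sets: with 0.1 µM GSK436 in parental cells, where the actin ratio averaged 37.3, the 3′ probe set was at 1.01 and the 5′ probe set at -0.53. Over the 15 arrays with an actin ratio above 20, the median signal was 43890 at the 3′ and 17660 at the 5′ probe set; over the other 23 arrays it was 26650 and 20600. Another ENO1 probe set was at -2.73 where the chosen one was at -0.03, and another PGK1 probe set at -2.26 where the chosen one was at -0.47. HK2 had a slope of 0, and its falls with GSK436 in parental cells stayed called with the ratio as a covariate. The ratio was 23.3 to 37.5 on the parental arrays with GSK436 alone and 4.59 to 12 with DMSO. As these ranges do not overlap, the covariate cannot tell drug and RNA quality apart there. The part of RNA quality in these and the other changes was not tested beyond that covariate.

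**Figure D5:**
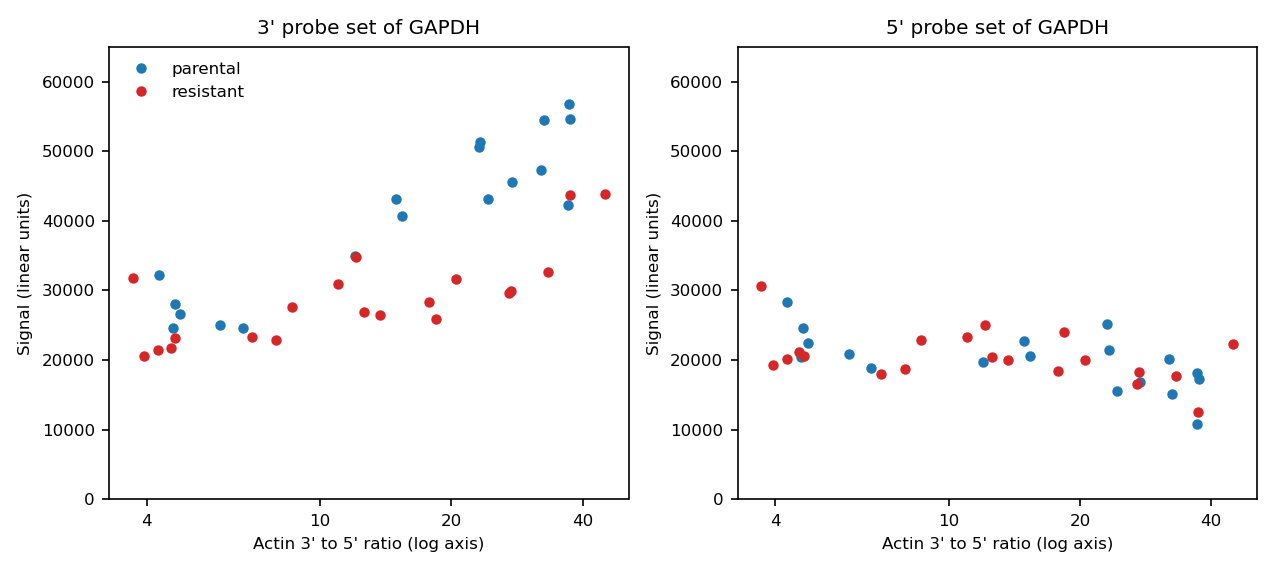
Signal of the 3′ and the 5′ GAPDH control probe sets (linear axis) on each of the 38 arrays against the ratio of 3′ to 5′ actin signal (log axis). The 3′ signal is higher and the 5′ signal lower on the 15 arrays above a ratio of 20, with medians of 43890 and 17660 against 26650 and 20600 on the other 23.

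Other isoforms and close relatives of these enzymes were counted from a separate list, 28 of 35 of which were tested. In parental cells 5, 6, 6, 6, 5 and 6 of the 28 were called higher and 4, 4, 0, 2, 2 and 5 lower, with 0.1 and 1 µM GSK436, 10 and 30 nM GSK212 and the low and high combination. Over the same comparisons 6.47% to 11.8% of all genes were called higher and 3.42% to 7.68% lower. SLC2A12, a glucose transporter, was called higher in all 6, with a mean signal of 5.40 with DMSO and 424 to 861 with drug. SLC2A6, a lysosomal hexose transporter, was called higher in all 6, at 26.6 with DMSO and 69.2 to 137 with drug, and the muscle phosphoglycerate mutase PGAM2 in all but the high combination, at 12.8 with DMSO and 72.6 to 125 with drug. The DMSO means of these 3 genes were under the filter signal of 34.88, which they passed through the arrays where they are high, so no size of change is given. The muscle enolase ENO3 rose by 1.03 to 1.72 in all 6. Among resistant comparisons limma called 0 of 28 with 0.1 and 1 µM GSK436, 30 nM GSK212 and the low combination, with 0, 0, 4 and 6 at an unadjusted p below 0.05. SLC2A6 was called higher there with 10 nM GSK212, from a dim mean of 18.1 to 57.05, HKDC1, a hexokinase relative, rose by 1.86 with the high combination, and the lactate and pyruvate transporter SLC16A7 was the 1 gene called lower with it. HKDC1 was the only gene of this list called between the lines under DMSO. Its mean signals were 10.98 in parental and 103 in resistant cells. The first was under the filter signal, so no size or p-value is given. The SLC2A12 change was called smaller in the resistant clone than in the parental line for all 6 treatments, again with no size given because the parental DMSO signal was under the filter.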

How the data were processed

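RNA of 38 samples was measured on one-colour Affymetrix arrays. The deposited values are intensity signals made by the authors with MAS5 (version not stated), per the submitters' processing notes, and scaled so that each array's trimmed mean lay between 149.84 and 149.96; array scans were not used here. The genome build is not given in the sources used here. The number of arrays, 2 or 3 a group, limits the precision.

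Values were taken as log2(signal + 2.8), where 2.8 is the 10th percentile of all values. Of 54675 probe sets, 41097 name 1 gene in GEO's platform annotation, and 35888 of these had at least 2 arrays above a signal of 34.88. The brightest probe set of each gene gave 18063 genes. One limma fit (version 3.58.1 in R 4.3.3, eBayes with trend) over 14 group means left 24 residual degrees of freedom, and its adjusted p-values cover all genes in a comparison. The test, tried on simulated data for parental cells with 1 µM GSK436 over 18063 genes, recovered 51% of log2 changes of 1.5 and 72% of 2.5, with 8 false calls. The simulation changed a far smaller share of genes than the 19.5% called in that comparison. It also held no difference in RNA quality, so its rates do not carry over to the real comparison. Arrays of a group correlated at 0.888 to 0.956. Promoter windows were read with Python 3.11.15 and pandas 2.3.3, and figures drawn with matplotlib 3.10.9.

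Same-numbered replicates of the groups compared did not deviate together: of 29 pairs, with correlations from -0.269 to 0.157, 2 exceeded 0.1, so the number is no pairing. Alternatives were centring of each array on its median log2 signal, quantile normalization, a larger pseudocount (25th percentile), a stricter filter (75th percentile) and none, the mean of a gene's probe sets, eBayes without trend, array weights, a replicate block, a covariate for log2 of the actin ratio, dropping arrays whose actin ratio exceeded 20, and dropping each array in turn.

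Per-array values are given for genes called in at least 3 of 19 comparisons and for the largest change in each direction in the line comparison and under 1 µM GSK436, 10 nM GSK212 and the high combination; other genes are named where called or where they complete an isoform family, and up to 4 called genes per comparison from each further list. SLC2A1 and the remaining genes with array values were added as called genes, except LDHA, which was called on centred arrays but not as scaled. The gene group and all lists (other isoforms, pentose phosphate pathway, citrate cycle, glycogen, hypoxia-response genes, regulators of glycolytic genes, ERK output, and melanocyte, leukocyte, and fibroblast and endothelial markers) were chosen with earlier results of these data known.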

Additional observations from a re-analysis of the deposited data

Results flagged for a closer look

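Tests of the difference between the lines (resistant change minus parental change, log2 scale, limma adjusted over all genes) passed for 11 combinations of gene and treatment. For HK2 the difference was 1.47 ± 0.31 with 0.1 µM GSK436 (adjusted p = 0.00286), 1.36 ± 0.31 with 1 µM GSK436 (adjusted p = 0.00338) and 1.13 ± 0.30 with 10 nM GSK212 (adjusted p = 0.031). The parental signal fell in each of these comparisons and the resistant signal was not called.

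For ALDOC the difference was -1.77 ± 0.35 with 0.1 µM GSK436 (adjusted p = 0.00136), -2.05 ± 0.35 with 1 µM GSK436 (adjusted p = 0.000158) and -1.25 ± 0.33 with 10 nM GSK212 (adjusted p = 0.0341). ALDOC rose in the parental line with each, and in the resistant clone with 10 nM GSK212. For PFKFB4 it was -1.29 ± 0.39 with 0.1 µM GSK436 (adjusted p = 0.0452) and -1.40 ± 0.39 with 1 µM GSK436 (adjusted p = 0.0142).

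With 1 µM GSK436 the lines also differed for GPI at -1.21 ± 0.32 (adjusted p = 0.0117), PFKFB3 at 1.10 ± 0.33 (adjusted p = 0.0242) and MPC2 at 1.53 ± 0.47 (adjusted p = 0.0262). The mean actin ratio in that treatment was 27.9 in parental and 10.9 in resistant cells, and MPC2 signal had a slope of -0.29 on the log2 ratio (adjusted p = 3.71e-06); its part in the difference was not tested beyond the covariate.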

How the results depend on the processing

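Of 57 called gene changes and differences, tried under 978 combinations of result and setting, 816 kept direction and call, 162 kept direction and lost the call, and 0 reversed; 16 results held under every setting run. Centring each array on its median had the largest effect on the counts of called genes among the 32: 14 in place of 7 with 0.1 µM GSK436 and 12 in place of 7 with 1 µM GSK436 in parental cells, 4 in place of 2 with 30 nM GSK212, 1 in place of 3 with 30 nM GSK212 and 1 in place of 2 with the high combination in resistant cells, 1 in place of 2 for the line difference with 10 nM GSK212, and 1 in place of 0 for the high combination against 10 nM GSK212 in parental cells. Quantile normalization gave 4 for parental cells with 30 nM GSK212 and 1 for the line difference with 10 nM GSK212. Array weights gave 12 (parental, 1 µM GSK436), 1 (parental, 30 nM GSK212), 2 (resistant, 10 nM GSK212), 11, 2 and 1 (line differences with 1 µM GSK436 and the low and high combination), and 1 (parental high combination against 10 nM GSK212). The actin covariate gave 4 (parental, 1 µM GSK436), 0 (resistant, 10 nM GSK212) and 1 (resistant high combination against 10 nM GSK212). Averaging a gene's probe sets gave 1 for the lines under DMSO, 1 for resistant cells with 30 nM GSK212, 2 with the low combination, 1 for the high combination against 1 µM GSK436, and 1 each for the line differences with 0.1 µM GSK436 and 10 nM GSK212. The stricter filter gave 2 and 1 for the resistant combinations, eBayes without trend 2 (resistant, 10 nM GSK212) and 0 (its line difference), the larger pseudocount 1 (parental, 30 nM GSK212), and dropping 11 arrays whose actin ratio exceeded 20 gave 1 (resistant, 30 nM GSK212) and 0 (line difference, 10 nM GSK212); the 2 parental GSK436 groups had only such arrays and kept them. With the replicate number as a block, 1 gene in place of 2 was called with 30 nM GSK212 in parental cells, and no other count moved by over 1.5 times. The causes were not tested.

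Leaving out each array in turn gave counts of 2 to 3 for the lines under DMSO; 3 to 9, 5 to 12, 3 to 7, 2 to 3, 3 to 6 and 5 to 8 for the parental treatments in the order of the groups; 0 to 3, 1 to 3, 2 to 4 and 2 to 3 for resistant cells with GSK212 and the combinations; 2 to 3, 2 to 8 and 0 to 2 for the line differences with 0.1 and 1 µM GSK436 and 10 nM GSK212 and 0 to 1 with the high combination; and 3 to 4 for the resistant high combination against 1 µM GSK436. Counts that moved by over 1.5 times did so in parental cells without DMSO replicate 1 (4 with 0.1 µM GSK436), 2 (3 with 10 nM GSK212) or 3 (12 with 1 µM GSK436), 0.1 µM GSK436 replicate 2 (3), 10 nM GSK212 replicate 1 (3) or low combination replicate 3 (6). In resistant cells they did so without DMSO replicate 2 (0, 1 and 2 with 10 and 30 nM GSK212 and the low combination), 10 nM GSK212 replicate 2 (3) or 30 nM GSK212 replicate 1 (1). The line difference with 1 µM GSK436 fell to 2 without resistant DMSO replicate 1. That with 10 nM GSK212 fell to 0 or 1 without any one of its arrays except parental 10 nM GSK212 replicate 3 and parental DMSO replicate 3. The difference for the high combination reached 1 without its parental replicate 3 or parental DMSO replicate 3. Dim signals limit PDK4 in the resistant clone and PDK2 in both lines.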

Other observations

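In the 6 parental treatments, in the order of the groups, 11.4%, 11.8%, 7.68%, 6.47%, 6.96% and 11.2% of all genes were called higher and 6.39%, 7.68%, 4.04%, 3.42%, 3.63% and 5.74% lower; the counts of called genes in the lists below are to be read against these shares. Regulators of glycolytic genes (19 of 20 tested) were called higher in 5, 5, 6, 5, 5 and 6 and lower in 3, 1, 1, 2, 1 and 1 cases in the parental treatments in the order of the groups. TXNIP, which restrains glucose uptake, had a mean signal of 128 with parental DMSO and 1180 to 1873 with drug, and rose by 3.17 to 3.83. Its relative ARRDC4 rose by 1.20 to 1.69, and the lysosomal factor TFEB by 1.98 to 2.70 from a dim DMSO mean of 32.2, in all 6. In the resistant clone TXNIP averaged 438 with DMSO (1.75 ± 0.24 above parental, adjusted p = 4.55e-06) and rose by 1.18, 1.24 and 1.59 with 30 nM GSK212 and the low and high combination. Its change differed between the lines for all 6 treatments, by -3.57 to -2.24. PPARGC1A, a coactivator of mitochondrial genes, was called lower in the resistant clone under DMSO, at mean signals of 1.70 against 25.3. Within that clone it was called higher in the 4 treatments with GSK212. Both DMSO means were under the signal used as the filter, so no size or p-value is given for PPARGC1A.

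The hypoxia-response list (17 of 18 tested) had calls in both directions in every parental treatment: 3, 2, 2, 2, 2 and 3 higher and 4, 4, 3, 3, 3 and 2 lower. The peptide hormone ADM fell by 1.64 to 2.17 and VEGFA, the vessel growth factor, by 1.19 to 1.91 in all 6, while NDRG1 rose by 1.13 to 1.47 and the collagen hydroxylase P4HA2 by 1.02 to 1.34. ADM was higher in the resistant clone under DMSO by 2.53.

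In the pentose phosphate list (11 of 12 tested) 3, 4, 3, 2, 1 and 3 genes were called higher and 4, 3, 2, 0, 2 and 3 lower in parental cells. H6PD, an entry enzyme of the pathway in the endoplasmic reticulum, rose by 1.57 to 1.84 in 5 comparisons and the ribose kinase RBKS by 1.26 to 2.04 in all 6, while PRPS2, which makes phosphoribosyl pyrophosphate, fell by 1.04 to 1.71 and the isomerase RPIA by 1.20 to 1.30 in 5 each. In the citrate cycle list (21 of 24) 2, 2, 2, 1, 1 and 2 were higher and 2, 2, 0, 0, 0 and 2 lower; cytosolic IDH1 rose by 1.38 to 1.78 in the 4 parental treatments with GSK212 and by 1.41 to 2.31 in 3 resistant ones. The mitochondrial PCK2 rose by 2.59 and 2.66 with 1 µM GSK436 and the high combination in parental cells and by 1.22 and 2.27 in resistant cells, where the rise with 1 µM GSK436 alone was the only call among the 21 genes for that treatment. In the glycogen list (13 of 14) 1, 1, 2, 1, 1 and 2 were higher and 0, 1, 0, 1, 1 and 0 lower; the brain phosphorylase PYGB was lower in the resistant clone under DMSO by 2.48 on the log2 scale and fell further by 1.51 to 1.85 in 3 of its GSK212 treatments.

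The ERK output list (14 tested) fell in 14, 14, 14, 13, 14 and 14 genes in parental cells. In the resistant clone limma called 0 with 0.1 µM and 0 with 1 µM GSK436, with 0 and 2 at an unadjusted p below 0.05, and 9, 12, 12 and 12 with 10 and 30 nM GSK212 and the combinations.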
